A study of Homo sapiens with 30 samples.

Results

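The 9 genes described here encode the receptors that steer T cells between blood, lymphoid organs and tissue: the chemokine receptors CCR4, CCR6, CCR7, CCR8, CCR9, CXCR3, CXCR4 and CXCR5, and S1PR1, a receptor for the lipid sphingosine 1-phosphate. They were taken by symbol from a table of 54300 gene symbols, and all 9 were found. RNA sequencing was done on Jurkat E6-1, a human T cell leukaemia line. The 15 KO libraries came from Jurkat cells in which isoform 1 of SLAMF6, one of the SLAM receptors of lymphocytes, was knocked out (SLAMF6∆17-65 in the protocol), and the 15 WT libraries from Jurkat cells without that deletion. Both genotypes were treated with the phorbol ester PMA at 200 ng/ml and the calcium ionophore ionomycin at 300 ng/ml, which stand in for T cell receptor signals through protein kinase C and calcium. Libraries were made at 0, 6, 12, 24 and 36 h, with 3 libraries for each genotype and time. The labels give these times without a unit, and hours were taken from the treatment protocol. The title of the series names an overexpressed isoform 3 while its design text names the isoform 1 knockout, and the design text was followed. No label says that libraries of a group came from separate cultures, so the p-values reflect the spread among libraries and nothing more. Whether the KO line is 1 clone is not stated.

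Chemokine receptors are receptors with a bundle of membrane helices that couple mainly to inhibitory G proteins. A bound chemokine starts actin remodelling and directed movement, after which receptor kinases and arrestins switch the receptor off. CXCR4 holds cells in the bone marrow and thymus through the chemokine CXCL12, CCR7 brings them into lymph nodes, and S1PR1 lets them leave along the sphingosine 1-phosphate gradient into lymph and blood. In activated T cells S1PR1 is known to be shut off, both by loss of its transcription factor KLF2 and by CD69, which drags the receptor protein from the cell surface.

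Library totals lay between 5.64 and 28.2 M counts, the median being 20.5 M. Levels are counts per M after TMM scaling (CPM), given by library or as the group mean ± SD (n = 3). They are not divided by transcript length, so they compare groups and not genes. For the labelled T cell line, all 11 T cell markers passed the filter on low counts and summed to between 3920 and 6060 CPM in KO libraries and between 4580 and 6420 CPM in WT libraries. Markers of monocytes, erythroid cells and epithelium stayed at or below 4.47, 1.06 and 3.82 CPM summed. The B cell list, whose CD79A is the main contributor, reached 31.6 CPM in KO libraries and 33.5 CPM in WT libraries. SLAMF6 itself was counted over all isoforms, so it does not check the deletion: its mean at 0, 6, 12, 24 and 36 h was 19.3, 42.3, 52.5, 123 and 139 CPM in KO, against 21.2, 38.8, 51.3, 78.8 and 105 CPM in WT. At 24 and 36 h every KO library lay above every WT library of the same time. All 30 libraries correlated best with their own group, with r from 0.975 to 0.995, but 4 stood apart: KO 6 h replicate 5, KO 12 h replicate 7, KO 24 h replicate 12 and WT 24 h replicate 12. The group next closest to KO 6 h replicate 5 was KO 12 h, and the one next closest to KO 12 h replicate 7 was KO 6 h. The library labelled KO 6 h replicate 5 was the lowest of its group in CXCR3 and the highest in CCR7 and CCR8. The library labelled KO 12 h replicate 7 was the highest of its group in CXCR3 and the lowest in CCR7 and CCR8. In CCR4, by contrast, both libraries were the lowest of their groups, at 20.66 and 21.84 CPM. Whether these 2 labels were exchanged was not tested, and an exchange would change the KO values at 6 and 12 h, so both are used as labelled and results are also given without them. Leaving out was done for the 4 libraries together. They were chosen after the data were seen, for standing apart, and leaving them out narrows the spread. Calls gained only in that fit therefore do not show a difference. Titles carry the letter B for KO and A for WT at 0 to 24 h, and C for both genotypes at 36 h, and what the letters mark is not stated. At 0 to 24 h genotype and letter cannot be told apart, nor can a change from an earlier time to 36 h and the change of letter.

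Of the 9 genes, 8 passed the filter on low counts, and CXCR5 did not. The tests are edgeR's quasi-likelihood F tests in 1 fit of all 30 libraries, with Benjamini-Hochberg adjustment over 21554 symbols for every comparison separately, and genes with an adjusted p below 0.05 are those called. For CXCR4, S1PR1, CCR4 and CCR9 the course over time differed between genotypes, in a joint test of the 4 changes from 0 h (adjusted p = 1.88e-08, 0.00149, 0.0108 and 0.0387). These 4 of 8 compare with 9.84% called among all tested symbols. The sequence before the start of each of these genes is shown because the results turn on them. Each line holds the 250 bases before the RefSeq start on GRCh38.p14, read 5′ to 3′ on the gene's own strand. Capitals mark matches, on either strand, to the AP-1 letters TGANTCA, the NFAT core GGAAA, the core CACCC bound by KLF factors, or the TATA box letters TATAAA.
CXCR4, chr2:136118150-136118399, minus strand: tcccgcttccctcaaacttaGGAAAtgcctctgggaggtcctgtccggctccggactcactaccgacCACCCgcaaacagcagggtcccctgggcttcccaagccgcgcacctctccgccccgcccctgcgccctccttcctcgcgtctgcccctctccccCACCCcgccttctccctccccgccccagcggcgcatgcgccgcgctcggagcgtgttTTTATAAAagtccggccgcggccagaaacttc
S1PR1, chr1:101236769-101237018, plus strand: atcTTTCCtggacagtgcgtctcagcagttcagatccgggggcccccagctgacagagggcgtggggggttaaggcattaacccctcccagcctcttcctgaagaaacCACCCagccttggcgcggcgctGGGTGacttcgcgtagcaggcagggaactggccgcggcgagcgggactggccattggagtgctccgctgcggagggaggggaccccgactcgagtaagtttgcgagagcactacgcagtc
CCR4, chr3:32951394-32951643, plus strand: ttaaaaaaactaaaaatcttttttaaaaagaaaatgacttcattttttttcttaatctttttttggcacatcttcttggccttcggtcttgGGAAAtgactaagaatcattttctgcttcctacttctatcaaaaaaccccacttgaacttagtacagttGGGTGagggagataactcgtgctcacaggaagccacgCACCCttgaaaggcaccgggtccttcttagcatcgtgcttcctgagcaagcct
CCR9, chr3:45886293-45886542, plus strand: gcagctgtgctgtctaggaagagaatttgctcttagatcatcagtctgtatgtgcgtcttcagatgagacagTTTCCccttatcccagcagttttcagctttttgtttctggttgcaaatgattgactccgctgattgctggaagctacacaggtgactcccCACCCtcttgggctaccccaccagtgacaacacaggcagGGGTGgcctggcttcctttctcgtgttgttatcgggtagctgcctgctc
AP-1 and NFAT are the factors that PMA and ionomycin are best known to switch on. None of the 4 windows held TGANTCA, which 6.57% of 35116 RefSeq windows of this length held. Each of the 4 held GGAAA 1 time and CACCC 2 times, letters that 55.6% and 54.7% of all windows held at least 1 time. The CXCR4 window alone of the 4 held TATAAA, in 2 overlapping matches that begin 32 and 30 bases before the start. Of all windows 10.7% held these letters at least 1 time. Such matches are letters only and not evidence of binding. RefSeq windows were at hand for 7 of the 9 genes, all but CCR7 and CCR8.

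CXCR4, the receptor for CXCL12, fell on activation in both genotypes, and by more in KO than in WT. Before stimulation the KO libraries held 580.5, 520 and 635 CPM and the WT libraries 479, 430.5 and 478 CPM. At 6 h they held 123, 109.8 and 126 CPM in KO and 260.5, 263 and 255 CPM in WT. Each KO library after 0 h lay below each WT library of the same time, while at 0 h each KO library lay above each WT library. At 12 h the KO libraries held 140.1, 99.9 and 119.8 CPM and the WT libraries 274, 255.5 and 242 CPM. At 24 h they held 106, 114 and 111 CPM in KO and 198, 193 and 315.5 CPM in WT. At 36 h they held 83.5, 71.5 and 79.3 CPM in KO and 288, 248.5 and 279 CPM in WT. From 6 h on the WT libraries ranged from 193 to 315.5 CPM, and in KO the level fell once more between 24 and 36 h.

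The log2 change of CXCR4 from 0 h was -2.27, -2.27, -2.39 and -2.89 at 6, 12, 24 and 36 h in KO (SE 0.136 to 0.139), against -0.84, -0.85, -0.97 and -0.77 in WT (SE 0.130 to 0.131). All 8 changes were called, with adjusted p of 3.1e-15 or less in KO and 1.08e-05 or less in WT. KO against WT stood at -1.12 (SE 0.131) on the log2 scale at 6 h, -1.10 (SE 0.132) at 12 h, -1.09 (SE 0.132) at 24 h and -1.80 (SE 0.134) at 36 h, with adjusted p = 2.12e-07, 2.89e-07, 3.97e-07 and 1.08e-11. At 0 h the difference was 0.32 (SE 0.129, adjusted p = 0.139). Fewer cells carrying a transcript and less transcript per cell cannot be told apart in such bulk libraries. Without the 4 libraries that stood apart, the 24 h difference was -0.82 (adjusted p = 1.13e-06) and the 0 h difference was called at the same size (0.32, adjusted p = 0.0167). CXCR4 lies on chromosome 2 at 136114349 to 136118165, minus strand (GENCODE 29 on GRCh38, which is not the authors' build).

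**Figure D1:**
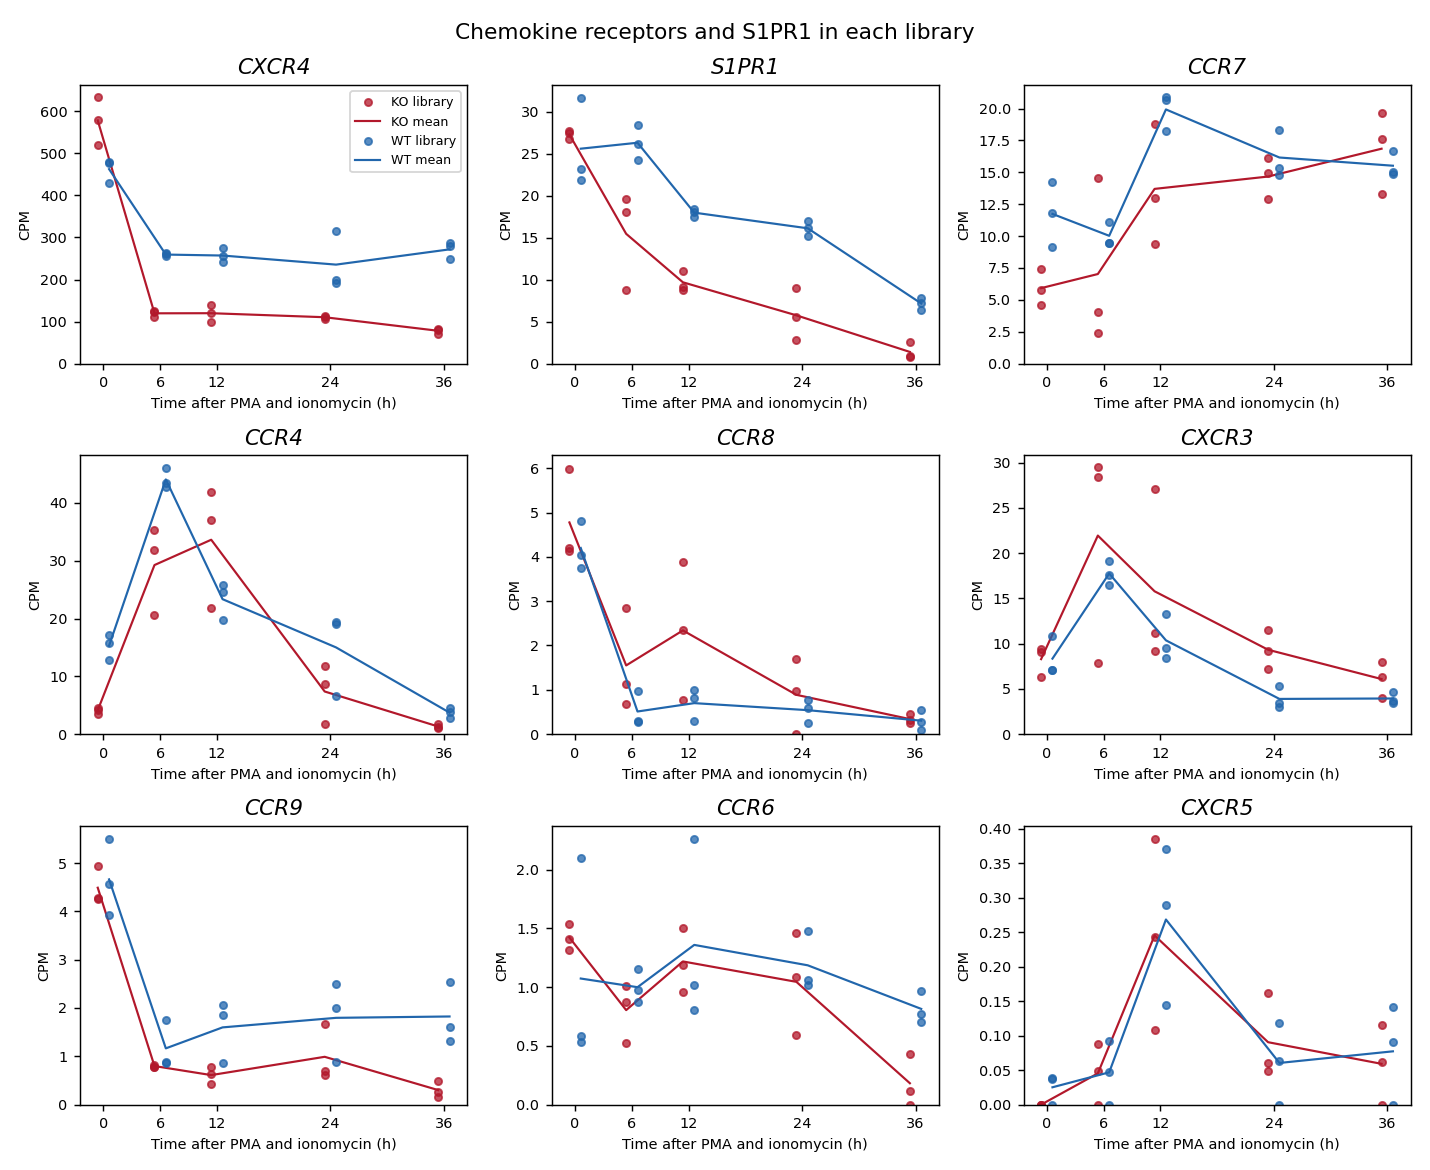
Level in CPM (y axis, from 0, scaled per panel) of the 9 genes against hours after PMA and ionomycin (x axis). Points are single libraries, KO (red, drawn left) and WT (blue, drawn right), and lines join the means of 3 libraries. CXCR4 in KO lay between 71.5 and 140.1 CPM from 6 h on, below every WT library.

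S1PR1, the exit receptor, fell in both genotypes, and by more in KO at 24 and 36 h. At 0 h the KO libraries held 26.7, 27.7 and 27.5 CPM and the WT libraries 23.2, 31.65 and 21.9 CPM, so the groups overlapped. At 6 h the KO libraries held 18.0, 8.73 and 19.6 CPM and the WT libraries 28.4, 26.2 and 24.3 CPM. At 12 h the KO libraries held 11.1, 8.81 and 9.17 CPM and the WT libraries 18.4, 17.5 and 18.1 CPM. From 6 h on no KO library reached the lowest WT library of its time. At 24 h the KO libraries held 5.51, 8.98 and 2.77 CPM and the WT libraries 15.3, 16.1 and 17.0 CPM. At 36 h the KO libraries held 2.52, 0.925 and 0.735 CPM and the WT libraries 6.44, 7.85 and 7.21 CPM. The KO mean was lower at each later time, whereas the WT mean at 6 h was that of 0 h within its spread.

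In KO the log2 change of S1PR1 from 0 h was -0.82 (SE 0.267, adjusted p = 0.0192), -1.49 (SE 0.274, adjusted p = 5.98e-05), -2.26 (SE 0.288, adjusted p = 8.34e-08) and -4.37 (SE 0.338, adjusted p = 1.02e-12) at 6, 12, 24 and 36 h. In WT only the change at 36 h was called among the 4 times, at -1.83 (SE 0.285, adjusted p = 2.62e-06), and those at 12 and 24 h were -0.49 (adjusted p = 0.167) and -0.65 (adjusted p = 0.0598). KO against WT was -0.77 (adjusted p = 0.0591) at 6 h, -0.89 (adjusted p = 0.03) at 12 h, -1.50 (adjusted p = 0.000506) at 24 h and -2.43 (adjusted p = 6.24e-06) at 36 h, with SE 0.264, 0.273, 0.288 and 0.349. The KO change from 0 h was below the WT change by 1.61 at 24 h (adjusted p = 0.015) and by 2.54 at 36 h (adjusted p = 0.000241) on the log2 scale. At 6 and 12 h this difference in change was not called, so an earlier fall in KO was not shown. The 6 h fall in KO was lost without KO 0 h replicate 3 or KO 6 h replicate 5 and the 24 h difference in change without WT 0 h replicate 1 or KO 24 h replicate 12, while the 12 h difference between genotypes was lost without WT 12 h replicate 7, 8 or 9 or KO 12 h replicate 8 or 9 (adjusted p up to 0.15, 0.062 and 0.108). Without KO 36 h replicate 4, the highest of its group, the KO change at 36 h was -5.04, KO against WT was -3.10 and the difference in change was -3.21. Without the 4 libraries that stood apart the KO fall at 6 h was -0.56 (adjusted p = 0.0351), KO against WT at 24 h was -1.11 (adjusted p = 0.00159), and the WT falls at 12 and 24 h were called too (-0.51 and -0.67, adjusted p = 0.0257 and 0.0098). S1PR1 lies on chromosome 1 at 101236865 to 101243713, plus strand.

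**Figure D2:**
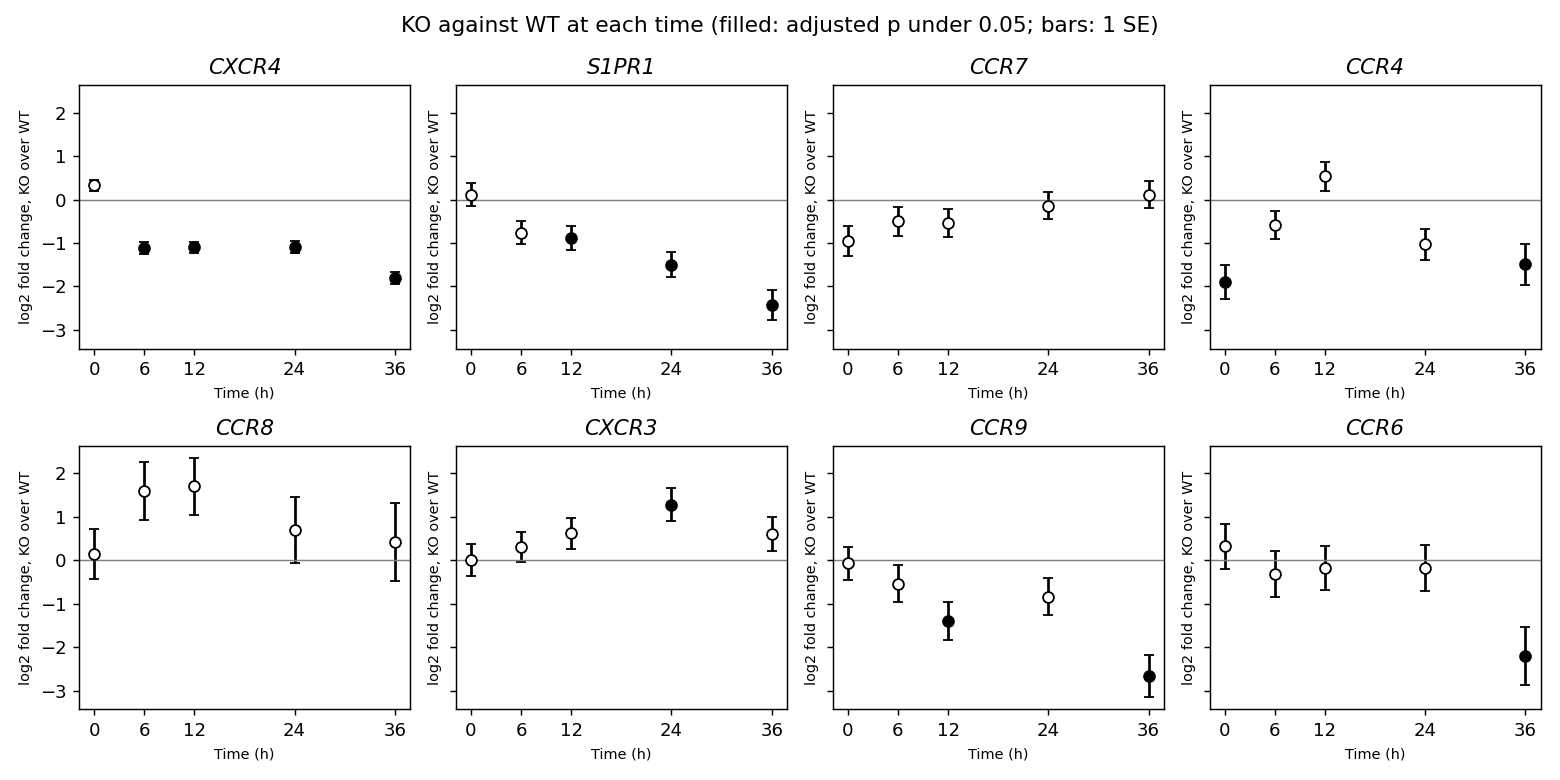
Log2 fold change of KO over WT (y axis) at each time in hours (x axis) for the 8 tested genes. Points are estimates from the fit, bars are 1 SE, and filled points have an adjusted p under 0.05. CXCR4 was filled and below 0 from 6 h on, and S1PR1 went lower at each time, to -2.43 at 36 h.

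CCR7, the receptor that brings T cells into lymph nodes, rose in KO. At 0 h the KO libraries held 7.40, 4.58 and 5.79 CPM, all below the WT libraries at 14.3, 9.12 and 11.8 CPM. At 6 h the KO libraries held 4.05, 14.6 and 2.44 CPM and the WT libraries 9.48, 11.1 and 9.49 CPM. The KO library at 14.6 CPM is replicate 5, 1 of the 4 that stood apart, and it lay above every WT library of that time while the other two lay below. From 12 h on the groups overlapped, and at 36 h the KO libraries held 19.6, 13.3 and 17.6 CPM and the WT libraries 16.7, 14.9 and 15.03 CPM.

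The KO rise from 0 h was called at 12, 24 and 36 h, with log2 changes of 1.16 (SE 0.341, adjusted p = 0.00907), 1.26 (SE 0.341, adjusted p = 0.0039) and 1.46 (SE 0.340, adjusted p = 0.000768). None of the 4 WT changes from 0 h was called, the largest being 0.74 at 12 h (SE 0.322, adjusted p = 0.0821). That the courses differed was not shown with all libraries (joint adjusted p = 0.445). Without the 4 libraries that stood apart the joint test gave an adjusted p of 0.000104. KO was then lower than WT at 0 h (-0.97, adjusted p = 0.000792) and at 6 h (-1.63, adjusted p = 1.9e-06). Those libraries, KO 6 h replicate 5 among them, were chosen after the data were seen, for standing apart from their groups. Leaving them out narrows the spread, so this fit does not show that the courses differed. The 12 h rise was lost without KO 12 h replicate 8 (adjusted p = 0.0873). CCR7 lies on chromosome 17 at 40553769 to 40565472, minus strand.

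CXCR5, the receptor that brings T cells into B cell follicles, was near the floor everywhere. Its counts summed over the 3 libraries of a group to 0, 3, 15, 5 and 4 at 0, 6, 12, 24 and 36 h in KO and to 2, 3, 13, 3 and 5 in WT. No count in KO at 0 h allows a level of up to 0.0537 CPM (3 counts over the group), a limit that covers counting error only. At 12 h the KO libraries held 0.243, 0.385 and 0.108 CPM and the WT libraries 0.29, 0.144 and 0.372 CPM. Both genotypes had their highest level at 12 h, and the groups overlapped at that time. CXCR5 lies on chromosome 11 at 118883766 to 118897799, plus strand, and 3925 of its 4431 exon bases are shared with BCL9L on the other strand. Whether the counting used strand is not given in the sources used here, so its reads are uncertain.

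CCR4, the receptor for CCL17 and CCL22 on skin-homing and type 2 helper T cells, was a late-falling gene with an early peak. At 0 h the KO libraries held 3.57, 4.23 and 4.58 CPM, all far below the WT libraries at 17.2, 15.8 and 12.9 CPM. At 6 h the KO libraries held 35.2, 20.7 and 31.9 CPM and the WT libraries 43.4, 42.8 and 46.0 CPM. At 12 h the KO libraries held 21.8, 42.0 and 37.1 CPM and the WT libraries 25.9, 19.7 and 24.5 CPM. The WT mean was highest at 6 h and the KO mean at 12 h. At 24 h the KO libraries held 11.7, 8.62 and 1.78 CPM and the WT libraries 19.3, 19.0 and 6.67 CPM, and the lowest of each group is the replicate 12 that stood apart. At 36 h the KO libraries held 0.984, 1.23 and 1.74 CPM and the WT libraries 3.81, 2.80 and 4.57 CPM.

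On the log2 scale KO against WT was -1.89 at 0 h (SE 0.389, adjusted p = 0.00203), and it was -1.49 at 36 h (SE 0.465, adjusted p = 0.0277). The rise from 0 h was 2.83 (SE 0.386) at 6 h and 3.03 (SE 0.387) at 12 h in KO, against 1.53 (SE 0.342) at 6 h and 0.61 (SE 0.343) at 12 h in WT (adjusted p = 4.98e-07, 1.4e-07, 0.000947 and 0.185). The difference between these rises was called at 12 h, at 2.42 (SE 0.512, adjusted p = 0.00578). At 36 h CCR4 was below its 0 h level in both genotypes, by -1.59 (adjusted p = 0.00639) in KO and -1.99 (adjusted p = 7.67e-05) in WT. The 36 h genotype difference was lost without WT 36 h replicate 1 or 3 or KO 36 h replicate 4 or 5 (adjusted p up to 0.12). Without the 4 libraries that stood apart KO was higher than WT at 12 h (0.77, adjusted p = 0.000622). At 24 h KO was then lower than WT (-0.90, adjusted p = 0.00137) and still above its 0 h level (1.33, adjusted p = 5.01e-07). With all libraries none of these was called. CCR4 then averaged 33.6 ± 10.5 CPM in KO and 23.35 ± 3.26 CPM in WT at 12 h. At 24 h it averaged 7.375 ± 5.09 CPM in KO and 15.01 ± 7.22 CPM in WT. So the fit without the 4 libraries does not show these differences. CCR4 lies on chromosome 3 at 32951574 to 32956349, plus strand.

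CCR8, the receptor for CCL1 found on skin-homing and regulatory T cells, fell in both genotypes. The 0 h KO libraries held 4.21, 5.99 and 4.13 CPM and the WT libraries 4.04, 3.76 and 4.803 CPM. At 6 h the KO libraries held 0.691, 2.84 and 1.12 CPM and the WT libraries 0.966, 0.288 and 0.278 CPM. At 36 h the KO libraries held 0.246, 0.309 and 0.464 CPM and the WT libraries 0.0907, 0.538 and 0.283 CPM. All libraries of 6 h and 36 h lay below all of 0 h within each genotype. The WT change was called at the 4 times, between -2.55 (12 h) and -3.99 (36 h), with adjusted p of 0.00292 or less. In KO the changes at 24 and 36 h were -2.43 (SE 0.647, adjusted p = 0.00329) and -3.72 (SE 0.709, adjusted p = 6.42e-05), that at 6 h was -1.58 (SE 0.604, adjusted p = 0.0489), and 12 h was not called.

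The 6 h call of CCR8 in KO was lost with DESeq2 and without any 1 of 21 of the 30 libraries (adjusted p up to 0.204). It stayed without WT 6 h replicate 4, WT 12 h replicate 7, WT 24 h replicate 12, WT 36 h replicate 1, KO 6 h replicate 5, KO 12 h replicate 7 or 9 or KO 24 h replicate 11 or 12. The value was -2.36 without KO 6 h replicate 5, and at 24 h in KO it was -1.78 without replicate 12 and -3.28 without replicate 11. In WT at 6 h it was -3.87 without replicate 4. With the 4 libraries that stood apart left out, CCR8 at 12 h was higher in KO than in WT (2.12, adjusted p = 0.0013); with all libraries it averaged 2.34 ± 1.55 CPM in KO and 0.699 ± 0.365 CPM in WT (adjusted p = 0.0916). CCR8 lies on chromosome 3 at 39329706 to 39333511, plus strand.

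CXCR3, the receptor for the interferon-induced chemokines on type 1 helper and cytotoxic T cells, peaked at 6 h. At 0 h the KO libraries held 9.10, 6.34 and 9.43 CPM and the WT libraries 7.11, 7.11 and 10.8 CPM. At 6 h the KO libraries held 29.5, 7.91 and 28.5 CPM and the WT libraries 19.1, 16.5 and 17.6 CPM. KO 6 h replicate 5, at 7.91 CPM, lay within the range of 0 h, and the other two KO libraries lay above all 3 WT libraries. At 12 h the KO libraries held 27.1, 9.15 and 11.2 CPM, with replicate 7 highest, and the WT libraries 13.3, 8.37 and 9.47 CPM. At 24 h the KO libraries held 9.24, 7.23 and 11.5 CPM and the WT libraries 2.95, 5.30 and 3.43 CPM, with no overlap.

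The 6 h rise was 1.36 (SE 0.355, adjusted p = 0.00339) in KO and 1.07 (SE 0.352, adjusted p = 0.0253) in WT on the log2 scale. In WT the level then fell below that of 0 h, by -1.14 at 24 h (SE 0.388, adjusted p = 0.021) and -1.08 at 36 h (SE 0.383, adjusted p = 0.0233), whereas in KO no change at 12, 24 or 36 h was called. At 24 h CXCR3 was higher in KO than in WT by 1.28 (SE 0.385, adjusted p = 0.0289), and the difference between the courses was not called (joint adjusted p = 0.436). The WT changes were lost without WT 0 h replicate 1 or 2 or WT 6 h replicate 4 or 6 at 6 h, without WT 0 h replicate 3 or WT 24 h replicate 10 or 12 at 24 h, and without WT 0 h replicate 3 or WT 36 h replicate 1 or 2 at 36 h, and the 24 h genotype difference without WT or KO 24 h replicate 10 or 12 (adjusted p up to 0.126, 0.147, 0.154 and 0.129). Without the 4 libraries that stood apart the KO rise at 6 h was 1.72 (adjusted p = 1.09e-07) and the 24 h genotype difference 1.04 (adjusted p = 0.0203). KO then also exceeded WT at 6 h (0.70, adjusted p = 0.031). KO 6 h replicate 5, the lowest of its group, is among those left out. With all libraries the 6 h genotype difference was not called (21.95 ± 12.2 CPM in KO, 17.76 ± 1.31 CPM in WT). So the fit without the 4 libraries does not show that KO exceeded WT at 6 h. CXCR3 lies on the X chromosome at 71615916 to 71618517, minus strand.

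CCR6, the receptor for CCL20 on type 17 helper and memory T cells, was low and fell late in KO. The KO libraries held 1.32, 1.41 and 1.54 CPM at 0 h and 0.431, 0 and 0.116 CPM at 36 h. The WT libraries held 2.10, 0.536 and 0.587 CPM at 0 h and 0.77, 0.968 and 0.707 CPM at 36 h. At 36 h every KO library lay below every WT library, and the KO group rests on 10 counts in all. The KO change from 0 h at 36 h was -3.04 (SE 0.641, adjusted p = 0.000241), and KO against WT at 36 h was -2.21 (SE 0.665, adjusted p = 0.0225). No earlier change and no WT change was called, and the KO minus WT difference of the change to 36 h missed the threshold (-2.53, SE 0.847, adjusted p = 0.055). Without KO 36 h replicate 4 the KO change was -4.32 and the genotype difference -3.49, and the genotype difference was lost without WT 36 h replicate 1 or 2 or KO 36 h replicate 5 or 6 (adjusted p up to 0.117). CCR6 lies on chromosome 6 at 167111807 to 167139696, plus strand, and shares 3008 of its 4346 exon bases with the transcript Z94721.2 on the same strand, so its reads are uncertain.

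CCR9, the receptor for CCL25 that marks thymocytes and gut-homing T cells, fell at once in both genotypes. Unstimulated KO libraries held 4.25, 4.93 and 4.28 CPM and the WT libraries 3.92, 4.56 and 5.50 CPM. At 6 h the KO libraries held 0.829, 0.786 and 0.78 CPM and the WT libraries 1.75, 0.865 and 0.88 CPM. At 36 h the KO libraries held 0.492, 0.257 and 0.155 CPM and the WT libraries 1.31, 1.61 and 2.54 CPM. In each genotype all libraries of 6 h and of 36 h lay below those of 0 h, and at both times the KO libraries lay below the WT libraries.

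The log2 change of CCR9 from 0 h was -2.47, -2.84, -2.16 and -3.94 at 6, 12, 24 and 36 h in KO (adjusted p of 7.42e-05 or less) and -1.996, -1.52, -1.39 and -1.34 in WT (adjusted p of 0.00601 or less). KO was lower than WT at 12 h, at -1.39 (SE 0.442, adjusted p = 0.0362), and at 36 h, at -2.66 (SE 0.489, adjusted p = 0.000209). The change from 0 h to 36 h was lower in KO than in WT by 2.60 on the log2 scale (SE 0.619, adjusted p = 0.00617). The 12 h difference was lost without the filter, in a fit of the compared groups alone and without WT 12 h replicate 8 or 9 or KO 12 h replicate 7, 8 or 9, and the WT change at 24 h was lost without WT 24 h replicate 12 (adjusted p up to 0.183 and 0.0546). The joint call was lost without any 1 of 14 libraries, namely WT 0 h replicate 1 or 2, WT 6 h replicate 5 or 6, WT 12 h replicate 8 or 9, WT 36 h replicate 2 or 3, KO 0 h replicate 1, 2 or 3, KO 12 h replicate 9 and KO 36 h replicate 5 or 6 (adjusted p up to 0.144), and the KO change at 24 h was -2.77 without replicate 10. CCR9 lies on chromosome 3 at 45886504 to 45903177, plus strand, inside the span of LZTFL1 on the other strand, with which it shares 0 exon bases.

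Counted over the 8 tested genes, the KO changes from 0 h called were 6 at 6 h (2 higher, 4 lower), 5 at 12 h (2 higher, 3 lower), 5 at 24 h (1 higher, 4 lower) and 7 at 36 h (1 higher, 6 lower). Among all tested symbols 27.2%, 27.8%, 32.8% and 36.7% were called in these comparisons, with 14%, 14.1%, 16.1% and 18.6% higher and 13.2%, 13.7%, 16.7% and 18% lower. In WT the calls were 5 at 6 h (2 higher, 3 lower), 3 at 12 h (0 higher, 3 lower), 4 at 24 h (0 higher, 4 lower) and 6 at 36 h (0 higher, 6 lower), against 22.4%, 30.3%, 34.3% and 39.1% of all tested symbols, with 10.5%, 15.6%, 17% and 19% lower and, at 6 h, 11.8% higher. The WT count at 12 h was 6 without the filter on low counts, in a fit of the compared groups alone and without the 4 libraries that stood apart. The median log2 change of the 8 genes at 36 h was -2.96 in KO and -1.21 in WT, beside 0.04 and 0.01 over all tested symbols. WT 24 h replicate 12 decided the WT count at 24 h, which was 2 without it.

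**Figure D3:**
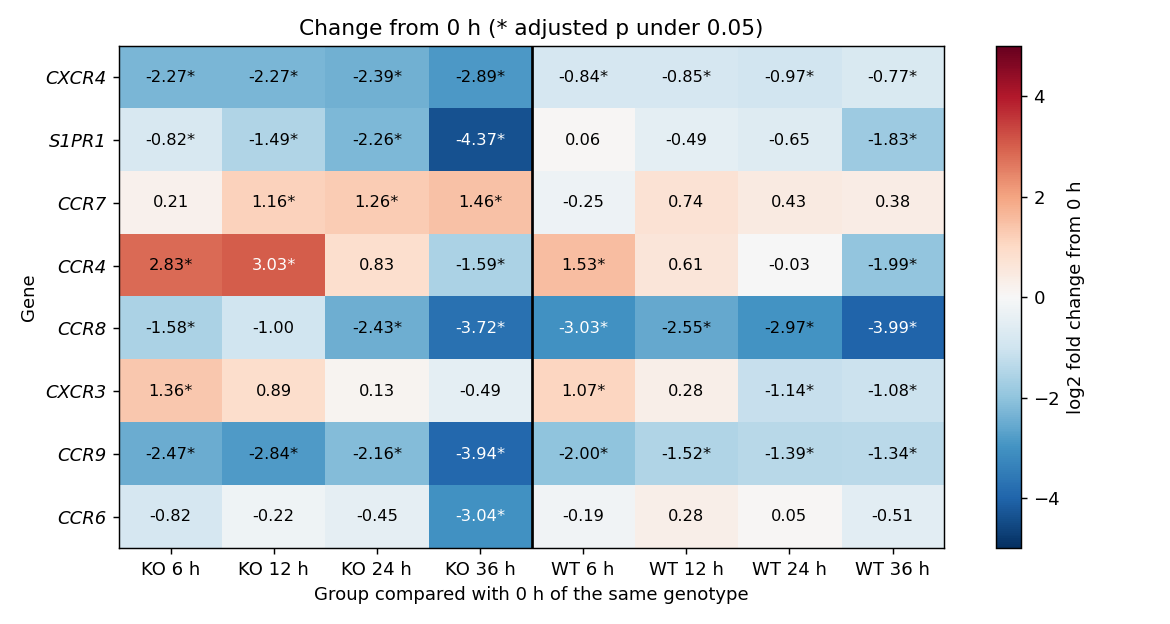
Log2 fold change from 0 h of the 8 tested genes (rows) at 6, 12, 24 and 36 h in KO (left columns) and WT (right columns). Red is higher and blue lower than 0 h, the number in each cell is the value, and an asterisk marks an adjusted p under 0.05. CXCR4, CCR8 and CCR9 were blue in all 8 columns, and CCR7 was starred in KO columns only.

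KO against WT called 1 of the 8 genes at 0 h (CCR4, lower), 1 at 6 h (CXCR4, lower), 3 at 12 h (CXCR4, S1PR1 and CCR9, lower), 3 at 24 h (CXCR4 and S1PR1 lower, CXCR3 higher) and 5 at 36 h (CXCR4, S1PR1, CCR4, CCR6 and CCR9, lower). Among all tested symbols 6.07%, 9.97%, 11.6%, 9.73% and 13.5% were called, with 3.11%, 4.76%, 5.52%, 4.76% and 6.52% lower and, at 24 h, 4.97% higher. The median log2 difference of the 8 genes was -1.65 at 36 h, against -0.0021 over all tested symbols. The KO minus WT difference of the change from 0 h was called for 1 gene at 6 h (lower), 2 at 12 h (CCR4 higher, CXCR4 lower), 2 at 24 h (lower) and 3 at 36 h (lower), against 3.01%, 2.06%, 3.54% and 9.33% of all tested symbols. Those lower were 1.37%, 0.65%, 1.7% and 4.62% of all symbols, and those higher at 12 h 1.42%. These tests share their 0 h libraries, as do the changes from 0 h, so their counts are not independent of each other. The 12 h count fell to 1 without WT or KO 12 h replicate 8 or 9, and the 36 h count to 3 without WT 36 h replicate 1 or KO 36 h replicate 5.

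Between neighbouring times, 5 of the 8 genes fell from 24 to 36 h in KO: CXCR4 (-0.50, adjusted p = 0.0152), S1PR1 (-2.11, adjusted p = 0.00016), CCR4 (-2.42, adjusted p = 0.000489), CCR6 (-2.59, adjusted p = 0.01) and CCR9 (-1.78, adjusted p = 0.026), against 7.43% of all tested symbols called and 3.35% lower. In WT 2 fell over that step, S1PR1 (-1.18, adjusted p = 0.00753) and CCR4 (-1.96, adjusted p = 0.00105), against 7.2% called and 2.57% lower. From 12 to 24 h only CCR4 was called in KO (-2.20, adjusted p = 2.15e-05; 14.5% of all symbols called, 8.2% lower) and only CXCR3 in WT (-1.42, adjusted p = 0.00984; 14.9% called, 7.25% lower). From 6 to 12 h none was called in KO (edgeR; 10.8% of all symbols), whereas without the 4 libraries that stood apart 4 were, CCR7 (2.29), CCR8 (1.78), CXCR3 (-1.51) and S1PR1 (-1.06), in a fit that called 3438 of all symbols where that of all libraries called 2334. CCR7 was called in WT (0.99, adjusted p = 0.0462; 9.49% called, 3.85% higher). The CCR7 step was lost with DESeq2 and without any 1 of 22 libraries (adjusted p up to 0.137), staying called without WT 24 h replicate 12, KO 6 h replicate 4, 5 or 6, KO 12 h replicate 7 or 8, KO 24 h replicate 12 or KO 36 h replicate 5. The other steps lost their call for CXCR4 without KO 24 h replicate 11 or KO 36 h replicate 5, for CCR6 and CCR9 without KO 24 h replicate 10 or KO 36 h replicate 5 or 6, and for CXCR3 without WT 12 h replicate 7 or WT 24 h replicate 10 (adjusted p up to 0.0867, 0.0721, 0.301 and 0.066), and those of CCR6 and CCR9 also in a fit of the compared groups alone. The KO step to 36 h was -1.17 for CCR9 without KO 24 h replicate 10, and -3.87 for CCR6 and -2.78 for S1PR1 without KO 36 h replicate 4.

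Genes that act beside these receptors were read from lists. Of 17 transcription factors and surface partners known to set receptor levels, 4 were higher and 5 lower in KO than in WT at 36 h, against 13.5% called and 6.52% lower among all tested symbols, with a median log2 difference of -0.05. LEF1, a factor of the Wnt pathway in immature and naive T cells, averaged 302.5 ± 10.8 CPM in KO and 1075 ± 58.1 CPM in WT at 36 h (log2 difference -1.83, SE 0.130, adjusted p = 3.12e-12). FOXO1, which drives S1PR1, CCR7 and KLF2 in resting T cells, averaged 13.02 ± 1.97 CPM in KO and 2.76 ± 0.479 CPM in WT (2.24, SE 0.418, adjusted p = 0.00026). S1PR1 was lower in KO at 36 h, and a relation between the levels of FOXO1 and S1PR1 was not tested. At 6 h 4 of the 17 were higher and 2 lower, against 9.97% called among all tested symbols. TBX21, the type 1 helper factor that drives CXCR3, then averaged 20.8 ± 10.98 CPM in KO and 4.56 ± 1.18 CPM in WT (2.18, SE 0.331, adjusted p = 1.62e-05). It was also higher in KO at 12, 24 and 36 h (1.02, 2.10 and 1.23, adjusted p = 0.0309, 9.98e-05 and 0.00754). With all libraries CXCR3 was called higher in KO at 24 h only, and a relation between TBX21 and CXCR3 was not tested.

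KLF2, the factor that drives S1PR1, was itself near the floor. The KO libraries held 1.57, 3.88 and 1.58 CPM at 0 h and 0.246, 0 and 0 CPM at 36 h, 4 counts in all. The WT libraries held 0.777, 1.07 and 0.843 CPM at 0 h and 0.317, 0 and 0.565 CPM at 36 h, 19 counts in all. Its fall in KO was called at 6, 12, 24 and 36 h (adjusted p = 0.0186, 0.0194, 0.00215 and 0.000424) and in WT at 24 h (adjusted p = 0.00721), the KO call at 6 h being lost without KO 0 h replicate 2 or KO 6 h replicate 4 (adjusted p up to 0.0938). The genotypes overlapped at 36 h. CD69, which holds S1PR1 protein inside the cell, averaged 8.57 ± 0.133 CPM in KO and 24.4 ± 1.84 CPM in WT at 0 h (-1.51, SE 0.206, adjusted p = 7.71e-06). By 36 h it averaged 816 ± 103 CPM in KO and 916 ± 22.1 CPM in WT.

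**Figure D4:**
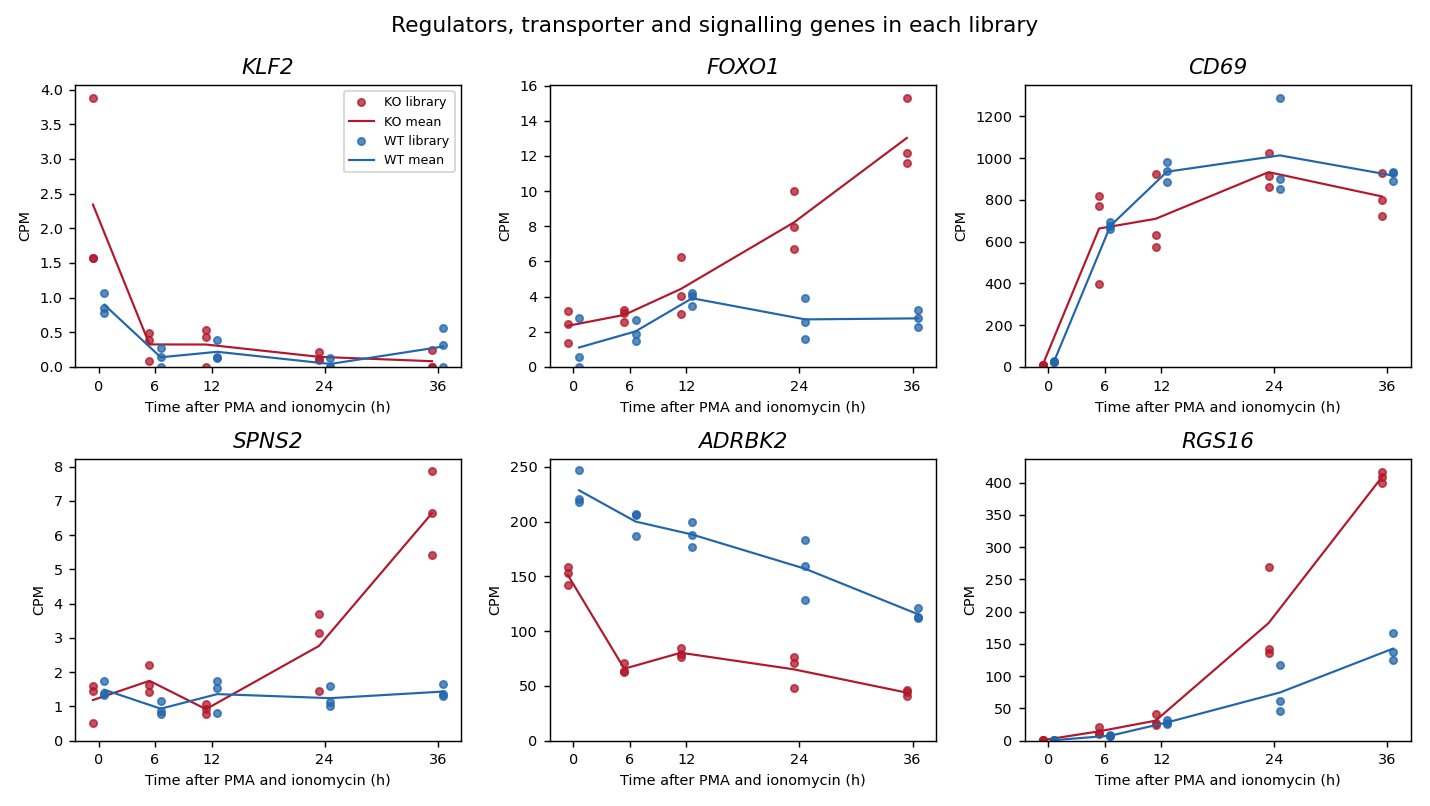
Level in CPM (y axis, from 0, scaled per panel) of KLF2, FOXO1, CD69, SPNS2, ADRBK2 and RGS16 against hours after PMA and ionomycin (x axis). Points are single libraries, KO (red, drawn left) and WT (blue, drawn right), and lines join the means of 3 libraries. ADRBK2 lay lower in every KO library than in every WT library of the same time, and FOXO1 and SPNS2 reached 11.6 CPM or more and 5.42 CPM or more in KO at 36 h.

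Of 17 tested genes that switch chemokine receptors off, 4 were higher and 3 lower in KO than in WT at 36 h, against 13.5% called among all tested symbols, with a median log2 difference of 0.06. ADRBK2, the older symbol of the receptor kinase GRK3, which acts on CXCR4, averaged 151 ± 8.17 CPM in KO and 229 ± 16.2 CPM in WT at 0 h and 43.8 ± 2.8 CPM in KO and 115 ± 4.81 CPM in WT at 36 h. It was lower in KO by -0.59 at 0 h (SE 0.121, adjusted p = 0.00185) and by -1.40 at 36 h (SE 0.125, adjusted p = 7.67e-10). RGS16, which speeds the shut-off of the G proteins that these receptors use, averaged 408 ± 8.77 CPM in KO and 143 ± 21.3 CPM in WT at 36 h (1.51, SE 0.259, adjusted p = 8.16e-05), both far above the 0.763 ± 0.442 CPM in KO and 0.78 ± 0.448 CPM in WT at 0 h.

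Of 21 tested genes that carry the signal onwards, 2 were higher and 4 lower in KO than in WT at 36 h, against 13.5% called and 6.52% lower among all tested symbols, with a median log2 difference of -0.01. RASGRP2, which switches on the adhesion GTPase RAP1 after chemokine contact, averaged 1.32 ± 0.186 CPM in KO and 5.88 ± 1.41 CPM in WT (-2.13, SE 0.416, adjusted p = 0.000438). RAP1A, a RAP1 gene, went the other way, with 71.1 ± 6.62 CPM in KO and 41.8 ± 6.45 CPM in WT (0.77, SE 0.121, adjusted p = 2.5e-05).

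Among 8 tested genes that make, break or carry sphingosine 1-phosphate, 1 was higher in KO than in WT at 36 h and 0 lower, a share near the 13.5% called among all tested symbols. It was SPNS2, the exporter of the lipid, at 6.64, 7.87 and 5.42 CPM in KO and 1.36, 1.29 and 1.65 CPM in WT (2.19, SE 0.353, adjusted p = 3.75e-05). PPAP2A, the older symbol of a membrane phosphatase that breaks the lipid down, rose to 46.4 ± 7.77 CPM in KO at 36 h, against 4.01 ± 0.493 CPM at 0 h, and to 56.4 ± 10.1 CPM in WT at 36 h, against 3.92 ± 0.919 CPM at 0 h (log2 3.49 and 3.82, SE 0.247 each, adjusted p = 1.04e-13 and 1.24e-14). It was lower in KO than in WT at both 6 and 12 h, with 13.8 ± 3.6 CPM in KO and 34.9 ± 2.63 CPM in WT at 6 h (-1.34, SE 0.213, adjusted p = 3.53e-05) and 14.6 ± 7.32 CPM in KO and 38.3 ± 2.15 CPM in WT at 12 h (-1.39, SE 0.214, adjusted p = 2.47e-05).

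Of 12 genes for the ligands of these receptors 6 passed the filter, and 1 was higher in KO than in WT at 36 h, a share near the 13.5% called among all tested symbols. CCL1, the ligand of CCR8, averaged 48.7 ± 2.39 CPM in KO and 19.2 ± 1.59 CPM in WT at 36 h (1.35, SE 0.346, adjusted p = 0.00694), and 0.3 ± 0.301 CPM in KO and 0.524 ± 0.105 CPM in WT at 0 h. In both genotypes the CCL1 mean was highest at 36 h, where the CCR8 mean was lowest. The step of CCL1 from 24 to 36 h was not called in WT (0.28, SE 0.351, adjusted p = 0.749). That of CCR8 was called in neither genotype, and a link between CCL1 and CCR8 was not tested. CCL20, the ligand of CCR6, averaged 17.9 ± 0.954 CPM in KO and 11.3 ± 1.48 CPM in WT at 36 h. That genotype difference was not called (0.66, SE 0.535, adjusted p = 0.493). At 0 h CCL20 averaged 0.0251 CPM in KO and had 0 counts in WT. Of 19 other tested chemokine and lipid receptors 1 was higher and 2 lower in KO than in WT at 36 h, a share near the 13.5% called among all tested symbols. At 24 h 1 of the 19 was higher and 1 lower in KO, against 9.73% called among all tested symbols. GPR183, the oxysterol receptor that places lymphocytes within lymphoid tissue, averaged 8.98 ± 0.466 CPM in KO and 19.5 ± 0.896 CPM in WT at 24 h (-1.12, SE 0.230, adjusted p = 0.00111). The higher was S1PR3, a further receptor for sphingosine 1-phosphate. Its KO mean was 36.02 ± 3.52 CPM, against a WT mean of 18.45 ± 1.07 CPM (0.965, SE 0.158, adjusted p = 6.57e-05). S1PR1 was lower in KO at that time.

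The courses of the receptors over the 10 groups were set against each other and against 12626 tested symbols of at least 1 CPM on average. Symbols that hold a dot or start with LOC, LINC, CTD-, CTC- or CTA-, or with RP, AC or AL and a digit, were left out. This is a description in which all points share genotype and time. CXCR4 and CCR9 ran most alike among the 8 genes (r = 0.954), then CCR6 and S1PR1 (r = 0.822), and CCR7 ran against CCR8 (r = -0.594). The genes closest to CXCR4 were ZBTB8A, DPYSL2 and ZMYND8 (r = 0.973, 0.973 and 0.964), and ZMYND8 was also the closest to CCR9 (r = 0.971). The closest to S1PR1 were PTBP2, ZNF678 and ZNF680 (r = 0.98, 0.979 and 0.977), and to CCR8 MFHAS1 (r = 0.98). For CCR4, CXCR3, CCR6 and CCR7 the closest were AP4B1 (r = 0.967), STX12 (r = 0.965), ZNF43 (r = 0.952) and SKIL (r = 0.94).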

How the data were processed

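Per the labels' protocols, lysis used TCL buffer, followed by SPRI bead purification of RNA. The authors deposited expected counts per gene symbol for each of the 30 libraries. The submitters' processing notes name cutadapt, STAR, DESeq2, GRCh37 and hg19 without versions, and the counting program is not given in the sources used here. Values that were not whole, 0.177% of all and 0 of those of the 9 genes, were rounded. In R 4.3.3 with edgeR 4.0.16, filterByExpr at a minimum count of 10 kept 21554 symbols, libraries were scaled with TMM, and 1 quasi-likelihood fit with a mean for each of 10 groups gave F tests for 24 comparisons, after it was tested on simulated data. Means and SDs are of CPM, and log2 fold changes and their SEs come from the fit. Alternatives were DESeq2 size factors, no filter, DESeq2 1.42.0, the compared groups alone, a replicate block and leaving out single libraries, and, chosen after seeing the data, leaving out 4 libraries together. The 9 genes, the lists and the promoter motifs were chosen with earlier results of these data known. Named list genes are up to 3 called genes per list and comparison with the largest absolute log2 fold change at 1 CPM or more, and the 3 genes closest in course to each receptor were found by Pearson correlation of log2 CPM (prior count 2). Genes plotted by library from the lists were chosen after their values were seen. Sequences are RefSeq's. Counting limits do not cover spread between cultures.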

Additional observations from a re-analysis of the deposited data

Results flagged for a closer look

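The course over time differed between genotypes for 4 of the 8 tested genes by a test of the difference itself. For CXCR4 the change from 0 h was lower in KO than in WT at 6, 12, 24 and 36 h, by log2 values of -1.44 (SE 0.184), -1.42 (SE 0.184), -1.42 (SE 0.184) and -2.12 (SE 0.186), with a joint adjusted p of 1.88e-08. For S1PR1 the difference was -1.61 (SE 0.391) at 24 h and -2.54 (SE 0.440) at 36 h, with a joint adjusted p of 0.00149. The 24 h difference was lost without WT 0 h replicate 1 or KO 24 h replicate 12 (adjusted p up to 0.062), and the 36 h difference was -3.21 without KO 36 h replicate 4. For CCR4 the change from 0 to 12 h was higher in KO than in WT by 2.42 (SE 0.512), with a joint adjusted p of 0.0108. For CCR9 the change from 0 to 36 h was lower in KO by -2.60 (SE 0.619), with a joint adjusted p of 0.0387. That joint call was lost without any 1 of 14 libraries (adjusted p up to 0.144): WT 0 h replicate 1 or 2, WT 6 h replicate 5 or 6, WT 12 h replicate 8 or 9, WT 36 h replicate 2 or 3, KO 0 h replicate 1, 2 or 3, KO 12 h replicate 9 or KO 36 h replicate 5 or 6. With 3 libraries in each group, no group was tested for a single far library.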

How the results depend on the processing

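Of the receptors, CXCR4 kept its direction and call in the 8 changes from 0 h and in KO against WT at 6 to 36 h under every alternative run. KO against WT at 12 h for CXCR3, not called, turned to -0.0176 without the 4 libraries that stood apart and ranged from -0.00735 (without KO 12 h replicate 7) to 0.907 (without KO 12 h replicate 8) over single libraries left out, and the WT step of CXCR4 from 12 to 24 h, not called, ranged from -0.357 (without WT 24 h replicate 12) to 0.00954 (without WT 24 h replicate 11); the cause was not tested for these or for the counts below. Same-numbered WT and KO libraries deviated together (r over 0.1) in 9 of 12 pairs, and in 9 of 12 the best match was the own number, which hints at shared variation; since no label gives the numbers a meaning and 3 pairs did not correlate, the block was not taken as the design. With the replicate block, receptors called in KO against WT were 2 at 0 h, with CCR7 gained (-1.03, adjusted p = 0.0378), and 2 at 6 h, with S1PR1 gained (-0.82, adjusted p = 0.0268), CCR4 was gained at 24 h (-1.17, adjusted p = 0.0031), and those in the difference of change at 6 h were 2, with CCR4 gained (1.31, adjusted p = 0.025), where 1038 symbols were called.

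Without the 4 libraries, receptors called became 6 in WT at 12 h against 0 h, 3, 3 and 5 in KO against WT at 0, 6 and 12 h, 2 and 5 in the difference of change at 6 and 36 h, 4 and 2 in the WT steps to 12 and 24 h and 4 in the KO step to 12 h. Symbols called became 2216 in KO against WT at 0 h, 1299, 990 and 3182 in the difference of change at 6, 12 and 36 h, 3940 in the joint test, 3282 in the WT step to 12 h and 2617 in the KO step to 36 h. Without the filter on low counts, receptors called became 6 in WT at 12 h against 0 h, 2, 4 and 5 in KO against WT at 0, 6 and 12 h, 3 in the difference of change at 6 h, 4 and 2 in the WT steps to 12 and 24 h, and 2 and 4 in the KO steps to 12 and 24 h. In a fit of the compared groups alone they became 6 in WT at 12 h against 0 h, 3 and 2 in KO against WT at 0 and 6 h, 2 in the difference of change at 6 h, 4 in the WT step to 12 h and 3 in the KO step to 36 h. Symbols called in that fit became 941 in KO against WT at 24 h, 467 in the difference of change at 24 h, 4028 in the WT step to 12 h and 1360 in the KO step to 12 h. With DESeq2, 0 receptors were called in the WT step to 12 h, and 1062, 710 and 1245 symbols in the difference of change at 6, 12 and 24 h.

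Leaving out 1 library at a time, receptors called ranged from 2 to 5 in WT at 24 h against 0 h, from 1 to 2, 1 to 2, 1 to 4 and 3 to 5 in KO against WT at 0, 6, 12 and 36 h, from 1 to 2 in the difference of change at 6 and at 24 h, from 0 to 2 in the WT steps to 12 and to 24 h, and from 0 to 2, 1 to 3 and 2 to 5 in the KO steps to 12, 24 and 36 h. Symbols called ranged from 651 to 1476, 1374 to 2313, 1366 to 2914 and 1376 to 2152 in KO against WT at 0, 6, 12 and 24 h, from 380 to 786, 438 to 1098 and 1290 to 2304 in the difference of change at 6, 24 and 36 h, from 1203 to 2467 and 788 to 1609 in the WT steps to 12 and 36 h, and from 1456 to 2539 and 774 to 1830 in the KO steps to 12 and 36 h. The filter on low counts left CXCR5 untested, and CCR6 in KO at 36 h rests on 10 counts.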
